A study of Phaseolus vulgaris with 36 samples.

Results

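The 100 genes with the most even level across 36 pod libraries of common bean (Phaseolus vulgaris) are described here. They were chosen by their measured values. Estimated counts were summed per gene, genes with too few counts were removed, and the libraries were put on 1 scale with the trimmed mean of M values (TMM), which sets the bulk of the genes equal between libraries. Levels were then taken as log2 CPM, the log2 of a gene's count scaled to library size, with a prior count of 2. Of the 27433 genes in the tables, 20966 passed the filter on low counts, 3864 of these had a mean log2 CPM of at least 5, and the 100 of these eligible genes with the lowest standard deviation (SD) of log2 CPM over the 36 libraries form the set. The choice used every library, so the low spread of the members is a description of that choice, and no p-value is given for the level of a member.

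Genes whose transcripts hold steady while a tissue changes serve as internal references, against which other transcripts are expressed in quantitative PCR. Genes for actin, tubulin, ubiquitin and elongation factor 1-alpha are the usual plant references, with roles in the cytoskeleton, in protein turnover and in translation. A legume pod changes its makeup as it matures: the wall extends, the seeds fill with storage products, and the wall then dries. On a scale set by the bulk of the genes, an even level means that a gene moved with that bulk, and fewer cells of a type and less RNA per cell cannot be told apart in bulk tissue. The labels do not say whether the seeds were part of the samples.

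The libraries form 12 groups of 3, from 4 accessions of untreated plants at 3 stages: the first pod (R7), the filling pod (R8) and the mature pod (R9). G12873 is a wild accession whose pods split open fully (dehiscent). The other 3 are domesticated: ICA Bunsi and SXB 405 have pods of middle dehiscence, and those of MIDAS stay closed (indehiscent). Accession, domestication and dehiscence cannot be told apart for G12873 and for MIDAS. Nothing in the labels says that the replicates came from separate plants, so the spread between them may be technical. The gene identifiers were not paired with names here: 0 of the 27433 matched the reference table, so members are given by identifier, with no role, and the labelled tissue was not checked against marker genes.

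The libraries differed in depth and in makeup. Total estimated counts ran from 2032504 to 15202548 per library. A set of 10 very abundant genes that rose and fell together took between 1.96% and 86.5% of a library's counts. It took over 50% in 8 libraries: replicates 1 and 2 of G12873 R7, replicate 3 of ICA Bunsi R7, replicates 1 and 3 of ICA Bunsi R9, replicate 1 of SXB 405 R9, replicate 2 of MIDAS R8 and replicate 1 of MIDAS R9. The median member had 16 counts in G12873 R7 replicate 1 and 1181.5 counts in SXB 405 R7 replicate 1. Results that rest on the 8 libraries are given with and without them.

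The SD of log2 CPM of the members ran from 0.18 to 0.28, with a median of 0.26. The median SD was 0.57 over the eligible genes and 0.94 over all genes that passed the filter. The mean level of the members ran from 5.005 to 8.03 log2 CPM, with a median of 5.67 against 5.82 over the eligible genes, and 58 of the 100 lay in the lower part of the eligible genes, under their median level. No member is among the most abundant genes. Counting error alone, from the estimated counts, would give a median SD of 0.10 for the members and 0.10 for the eligible genes. Without the 8 libraries the median SD was 0.23 for the members and 0.48 for the eligible genes.

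**Figure D1:**
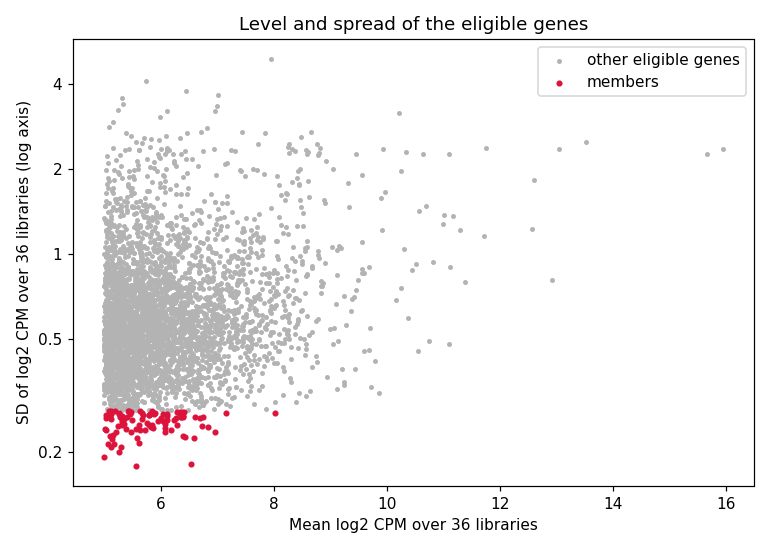
Mean level (horizontal axis, log2 CPM) and spread (vertical axis, SD of log2 CPM over 36 libraries, log axis) of the eligible genes, 1 point per gene. The 100 members (red) form the lower edge, with SDs from 0.18 to 0.28, and their means end at 8.03 while other eligible genes (grey) reach 15.94.

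Phvul.002G078800 had the lowest SD of all, 0.18. Its level was 46.5, 47.5 and 61.4 CPM in the 3 libraries of G12873 R7, where the first of these rested on 14 counts, and 45.1, 46.2 and 45.2 CPM in SXB 405 R7, where the first rested on 1035 counts. In MIDAS it stood at 48.4, 47.8 and 43.8 CPM at R7, at 53.7, 46.3 and 57.1 CPM at R8 and at 41.2, 39.7 and 41.3 CPM at R9. Its lowest library was ICA Bunsi R9 replicate 1, at 35.4 CPM, and its highest was G12873 R7 replicate 3, at 61.4 CPM, around a mean of 47.5 CPM (SD 5.99, n = 36). The 4 accessions overlapped, with means of 50.9 CPM (SD 6.34, n = 9) in G12873, 45.5 (SD 5.44, n = 9) in ICA Bunsi, 47.2 (SD 5.84, n = 9) in SXB 405 and 46.6 (SD 5.90, n = 9) in MIDAS.

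Phvul.003G135100, with the next lowest SD (0.18), was at a higher level of 93.2 CPM (SD 11.9, n = 36). Its libraries ran from 73.4 CPM in MIDAS R7 replicate 1 to 127 CPM in ICA Bunsi R9 replicate 3, with a median of 92.7 CPM. MIDAS stood lower than the other accessions: its 9 libraries lay between 73.4 and 86.6 CPM, while those of SXB 405 lay between 89.5 and 111 CPM. The libraries of MIDAS overlapped with those of G12873 (79.7 to 110 CPM) and of ICA Bunsi (83.8 to 127 CPM). The variance between accessions made up 44.9% of the sum of squares of this gene and the variance between stages 11.5%.

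The next 8 members by SD were Phvul.009G041100, Phvul.002G186300, Phvul.009G003300, Phvul.009G097700, Phvul.006G134400, Phvul.009G165300, Phvul.004G155700 and Phvul.009G111600, with SDs from 0.19 to 0.22. Phvul.009G041100 had a mean of 5.005 log2 CPM, just above the minimum level, and ranged from 22.9 to 38.0 CPM. Phvul.004G155700 ranged more widely, from 37.2 to 80.5 CPM, and its highest value, in ICA Bunsi R9 replicate 3, stood 0.72 above its mean on the log2 scale. In Phvul.002G186300, 73.996% of the sum of squares lay between replicates of 1 group, and in Phvul.009G111600 45.2% lay between stages. Of these 10 leading genes, all but Phvul.009G111600 were also among the 100 lowest SDs when the 8 libraries were left out.

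The set has no natural edge. The last members inside it were Phvul.003G041800 with an SD of 0.2788, Phvul.008G128000 with 0.2792 and Phvul.006G021200 with 0.2793. The first genes outside were Phvul.001G032700 with 0.2795, Phvul.008G224000 with 0.2798 and Phvul.010G090500 with 0.2799.

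The means of the 12 groups spanned a median of 0.64 on the log2 scale per member, from 0.36 to 1.02, and 99 of the 100 members spanned less than 1, that is, less than a 2-fold range. Of the eligible genes 12.9% did. In 94 members every single library lay within 1 of the member's mean, against 17.8% of the eligible genes. A median of 42.0% of a member's sum of squares lay within groups, 21.3% in the interaction of accession and stage, 15.6% between accessions and 11.5% between stages. Over the eligible genes the medians were 24.8%, 21.4%, 19.1% and 24.6%. These 4 parts hold 24, 6, 3 and 2 of the 35 degrees of freedom, in that order, so their sizes are set here against the eligible genes and not against each other.

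The members' largest deviations fell in few libraries. For 68 of the 100 members the library farthest from the mean was 1 of the 8 in which these abundant genes exceeded 50% of the counts, and for 33 it was replicate 1 or 2 of G12873 R7. Median absolute deviations of the members were 0.25 and 0.28 in those 2 libraries and 0.15 in the third G12873 R7 library. Over the eligible genes they were 0.73, 0.78 and 0.34, so larger deviations in those 2 libraries are not particular to the members. Among groups, MIDAS R7 stood lowest: 70 members lay below their own mean there, by a median of 0.12 on the log2 scale, and it was the lowest of the 12 groups for 25 members. SXB 405 R8 and R9 stood highest, with 67 and 65 members above their mean and a median deviation of 0.07 in each. These counts by library and by group were not taken over the eligible genes, so they describe the members only.

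**Figure D2:**
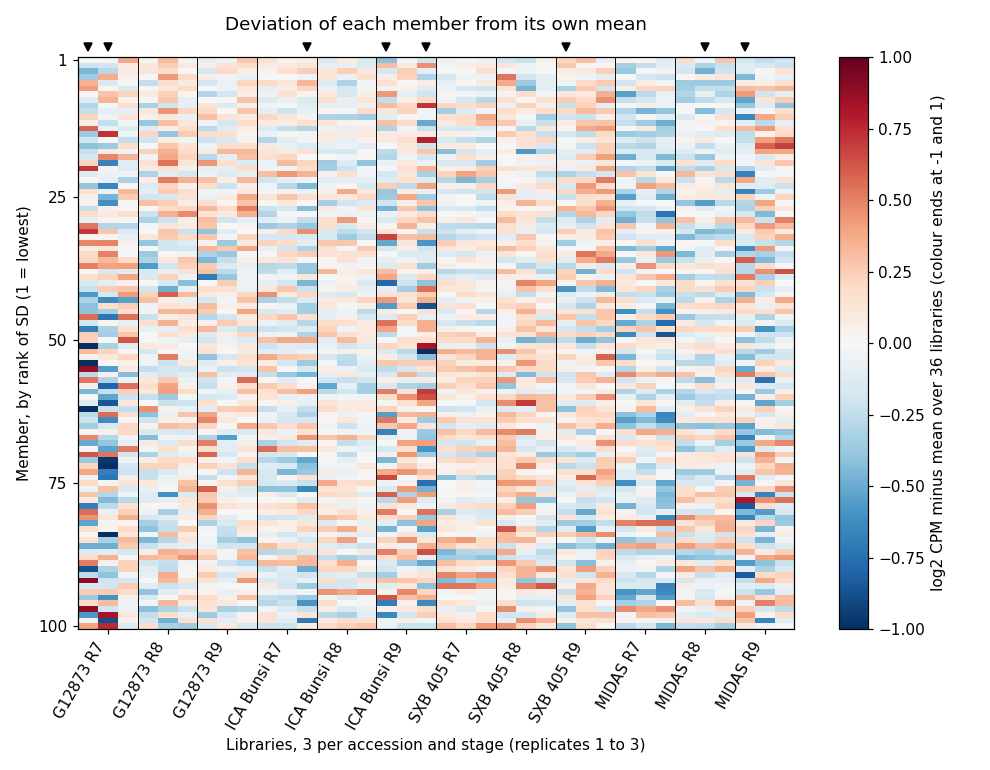
Deviation of each of the 100 members (rows, ordered by SD) from its own mean in each of the 36 libraries (columns, 3 per accession and stage), as a colour from -1 (blue) to 1 (red) in log2 CPM. Triangles mark the 8 libraries where the 10 abundant genes exceeded 50%, where 68 members have their largest deviation. MIDAS R7 is paler blue, with 70 members below their mean.

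Phvul.005G161000 had the widest span of group means, 1.02 on the log2 scale. It stood at 24.1, 25.3 and 23.2 CPM in MIDAS R7 and at 49.5, 47.8 and 50.8 CPM in ICA Bunsi R8. Those 2 groups are the ends of the span for which this gene was picked, so nothing is read from their separation. Within each the replicates lay close together. In MIDAS it was at 35.4, 32.7 and 35.7 CPM at R8 and at 31.1, 27.8 and 34.1 CPM at R9. Its SD was 0.30 without the 8 libraries and 0.28 with them, on the same scaling.

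Phvul.007G262200 was next in span, at 0.89. MIDAS R7 was its lowest group, with a mean of 52.6 CPM (SD 8.45, n = 3), and ICA Bunsi R9 its highest, with 97.5 CPM (SD 12.1, n = 3). In each accession the R7 mean was the lowest of the 3 stage means: 71.4, 68.0, 64.8 and 52.6 CPM in G12873, ICA Bunsi, SXB 405 and MIDAS.

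Phvul.006G002400, the third in span at 0.88, showed the opposite pattern to Phvul.005G161000. Its level was 19.9, 32.4 and 37.3 CPM in G12873 R7 and 47.2, 44.6 and 72.0 CPM in ICA Bunsi R9, and both the 19.9 (6 counts) and the 72.0 (77 counts) came from libraries among the 8. Its other groups had means between 36.5 and 44.5 CPM. Without the 8 libraries its SD was 0.13 on the same scaling, and when the filter, the scaling and the choice were repeated without them it ranked first of 5116 eligible genes. The members with the largest deviations in a single library also had lower SDs without the 8. Those deviations fell in libraries among the 8, so a lower SD is built into leaving them out. Phvul.009G192800 stood 1.24 below its mean in G12873 R7 replicate 2, at 25.3 CPM from 25 counts, and its SD was 0.27 with the 8 libraries and 0.18 without them. Phvul.006G168400 stood 1.11 below its mean in replicate 1 of that group, at 29.9 CPM from 9 counts, and Phvul.L005701 stood 1.08 below in replicate 2, at 16.2 CPM from 16 counts. Their SDs without the 8 libraries were 0.17 and 0.19, with the scaling kept.

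Some members carried a stage or an accession difference inside their narrow range. Phvul.001G140500 had the largest part of its sum of squares between stages, 63.6%. Its R7 libraries ran from 28.3 to 44.4 CPM (median 36.1), its R8 libraries from 38.0 to 50.3 CPM (median 41.9) and its R9 libraries from 44.3 to 66.1 CPM (median 52.7). The medians stood in the order of the stages, and neighbouring stages overlapped. Phvul.001G110300 followed, with 53.5% between stages and means of 119 CPM (SD 7.53, n = 12) at R7, 145 (SD 25.6, n = 12) at R8 and 168 (SD 24.1, n = 12) at R9. In MIDAS this gene was at 116 CPM (SD 1.93, n = 3) at R7, 117 (SD 4.36, n = 3) at R8 and 165 (SD 14.5, n = 3) at R9.

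Phvul.001G121500 had the largest part between accessions, 57.6%. SXB 405 stood highest, with 9 libraries from 81.1 to 120 CPM and a median of 103.3 CPM. The medians of G12873, ICA Bunsi and MIDAS were 72.7, 69.6 and 72.8 CPM, and these 3 accessions did not differ beyond their spread. Phvul.004G092400 followed with 50.6%. Its accession means were 34.7 CPM (SD 5.69, n = 9) in ICA Bunsi, 39.4 (SD 4.94, n = 9) in G12873, 44.0 (SD 2.62, n = 9) in MIDAS and 47.6 (SD 5.82, n = 9) in SXB 405, and the libraries of neighbours in that order overlapped.

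Per transcript length, on the TPM scale, the members spanned a wide range of mean levels. Phvul.009G095600 was highest at 266 TPM (SD 155, n = 36), followed by Phvul.001G121500 at 130 TPM (SD 78.5, n = 36) and Phvul.011G046100 at 88.2 TPM (SD 47.2, n = 36). Phvul.009G003300 was lowest at 8.22 TPM (SD 4.42, n = 36), then Phvul.009G097700 at 9.32 TPM (SD 4.68, n = 36) and Phvul.008G055600 at 11.4 TPM (SD 6.23, n = 36).

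The evenness of the members depended on the scale. TPM values share a fixed total, so a library in which the 10 abundant genes took most of the counts leaves less for every other gene. The median TPM of the 100 members ran from 1.31 in G12873 R7 replicate 1 to 44.5 in G12873 R8 replicate 2, while their median TMM-scaled level ran from 44.6 to 55.7 CPM. Phvul.002G078800 was at 1.13, 5.74 and 60.2 TPM in the 3 libraries of G12873 R7, where it stood between 46.5 and 61.4 CPM after TMM scaling. On the log2(TPM + 1) scale the SDs of the members ran from 0.92 to 1.36, with a median of 1.12 against 1.29 over the eligible genes, and 8 of the 100 members would have been chosen on that scale. Phvul.003G135100 was among those 8.

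**Figure D3:**
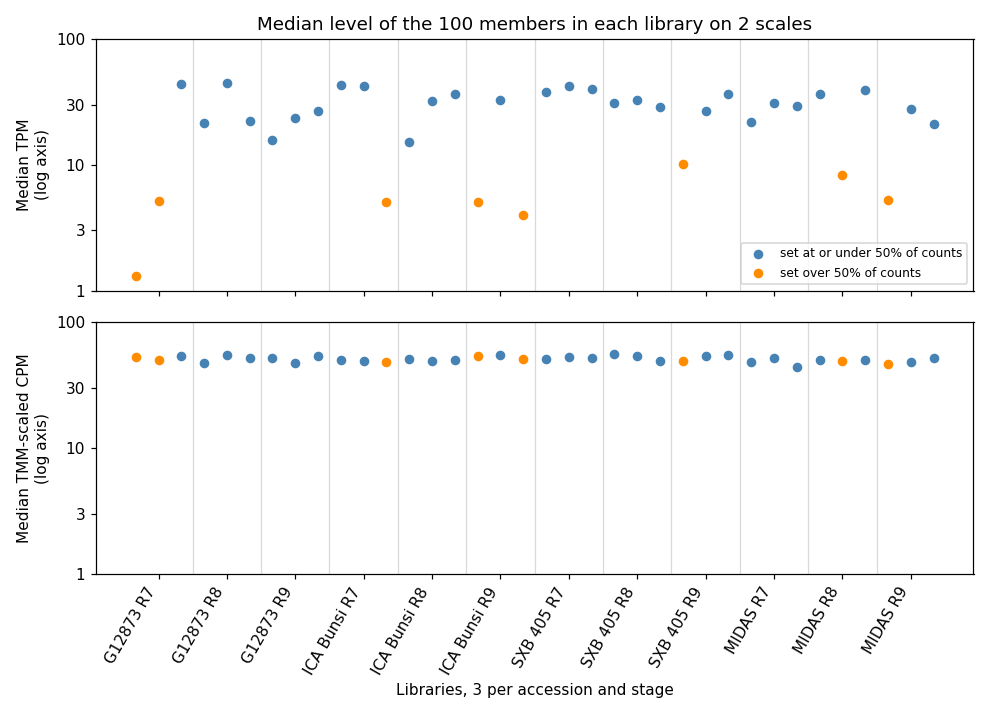
Median level of the 100 members in each of the 36 libraries as deposited TPM (upper panel) and as TMM-scaled CPM (lower panel), both on log axes, with libraries grouped by accession and stage. The 8 libraries where the 10 abundant genes exceeded 50% (orange) hold the 8 lowest TPM medians, down to 1.31, while all CPM medians lie between 44.6 and 55.7.

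Ratios between members do not depend on how libraries are scaled against each other. Over the 4950 pairs of members the SD of the log2 ratio had a median of 0.34, and 218 pairs stayed under 0.25. The members were chosen for low spread in these same libraries, which also keeps their ratios and their mean narrow. Ratios of other eligible genes were not taken, so these values are a description. The steadiest pair was Phvul.003G135100 over Phvul.001G200700, with an SD of 0.16 and a log2 ratio between -0.11 and 0.46 in all 36 libraries. Without the 8 libraries its SD was 0.14. The least steady was Phvul.011G099700 over Phvul.011G046100, with an SD of 0.49 and a log2 ratio between -2.11 and -0.22. The mean of all 100 members, taken per library, varied with an SD of 0.07, from -0.14 to 0.15 around its own mean.

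The study compared consecutive stages within each accession. A gene was called in a step at a Benjamini-Hochberg adjusted p under 0.05, from edgeR's quasi-likelihood test over all 20966 genes, with at least a 2-fold change. The step from R7 to R8 called 24.7% of all genes tested in G12873, 23.2% in ICA Bunsi, 25.2% in SXB 405 and 16.8% in MIDAS. From R8 to R9 it was 0%, 15.4%, 4.96% and 30.3%. No member was called in any of the 8 steps by edgeR, DESeq2 or limma-voom, and because the choice used these libraries nothing is read from that. At an unadjusted p under 0.05, 16, 17, 9 and 24 members passed from R7 to R8 in G12873, ICA Bunsi, SXB 405 and MIDAS, and 1, 19, 8 and 23 from R8 to R9. Of all 20966 genes, 8587, 8736, 8432 and 7874 passed at that level from R7 to R8 and 1209, 7152, 4094 and 9852 from R8 to R9, in the same order of accessions. The log2 changes of the members lay between -0.79 and 0.72, and both of these ends fell in steps from R8 to R9, of MIDAS and of ICA Bunsi. With no minimum fold change, 37 members and 76.3% of all genes tested passed in at least 1 step.

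A test of any difference among the 12 groups called 89.4% of all genes tested and 94.6% of the eligible genes. Of the members, 45 of 100 were called by edgeR's quasi-likelihood F-test and 78 by DESeq2, which called 17880 of all 20966 genes. More members were also called without the 8 libraries, where G12873 R7 and ICA Bunsi R9 hold 1 library each. The choice used these libraries too, so the share is a description.

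The same measure was then taken in libraries that the choice did not use. The rule was applied to the 27 libraries of 3 accessions, and the SD of the 100 genes so chosen was measured over the 9 libraries of the accession left out. In G12873 the chosen genes had a median SD of 0.38 against 0.56 for all eligible genes, and 82 of the 100 lay below the eligible median. In ICA Bunsi the medians were 0.26 and 0.46, with 95 below. In SXB 405 they were 0.22 and 0.39, with 94 below, and in MIDAS 0.32 and 0.53, with 91 below. In each accession left out most of the chosen genes were steadier than the median eligible gene, and the count was lowest in G12873. Without the 8 libraries the counts below the median were 92, 93, 95 and 90 of 100 in the same order. Of the genes chosen without G12873, 43 were members of the set chosen on all libraries, and 66, 71 and 54 of those chosen without ICA Bunsi, SXB 405 and MIDAS.

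**Figure D4:**
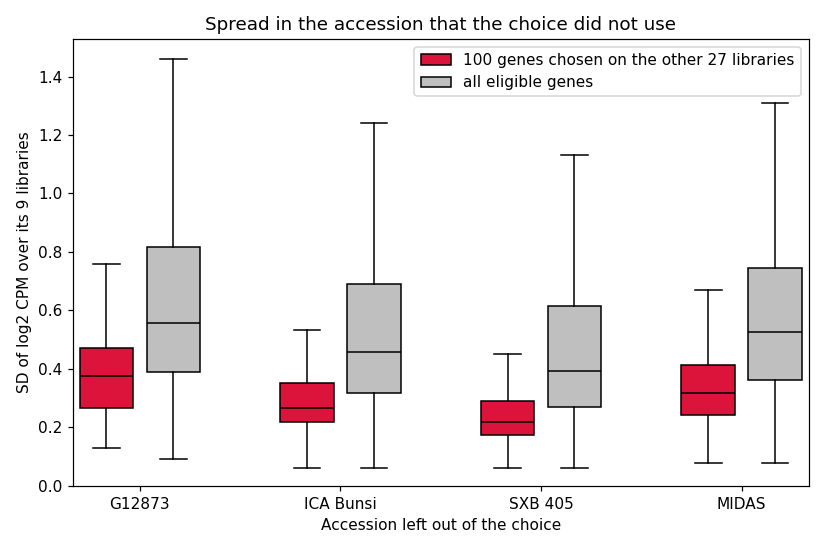
SD of log2 CPM over the 9 libraries of the accession left out (vertical axis) for the 100 genes chosen on the other 27 libraries (red) and for all eligible genes (grey), for each accession left out (horizontal axis). Boxes span the quartiles around the median and whiskers reach 1.5 times that span, with genes beyond them not drawn. The red medians, 0.38, 0.26, 0.22 and 0.32, lie below the grey ones, 0.56, 0.46, 0.39 and 0.53.

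The members of the list were partly exchangeable. When single libraries were left out in turn, between 66 and 96 members were chosen again, with the fewest without replicate 1 of G12873 R7, and 54 were chosen again in all 36 cases. With an accession or a stage left out, between 31 and 71 were chosen again, and 6 genes stayed in the list in all 7 of these settings: Phvul.002G078800, Phvul.003G135100, Phvul.009G003300, Phvul.009G097700, Phvul.001G167400 and Phvul.007G015800. The last pair was named for this property after its values were seen. Without the 8 libraries 31 members stayed in the list, while 92 were among the 500 lowest SDs of the 5116 genes then eligible. Phvul.009G041100 stayed in the list in 12 of the 36 cases, as its mean level lay at the minimum.

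Features that the rule did not use can be set beside the same over the eligible genes. The longest transcript of a member had a median length of 2299.5 bases, against 1712 bases over the eligible genes and 1630 over all genes tested. The members' median TPM was 27.1, against 43.2 over the eligible genes. The rule sets a minimum on counts and not on counts per length, so at a given level in CPM a longer transcript has a lower TPM. By their identifiers, 19 members lay on chromosome 9, which holds 11.4% of the eligible genes, 14 on chromosome 1 (10.1%) and 3 on chromosome 11 (6.81%), and 2 had identifiers of unplaced sequence. In 4 pairs, such as Phvul.003G041300 and Phvul.003G041800, both members stood within 10 identifiers of each other. Whether reads were shared with near-identical copies elsewhere is not given by the files. A single transcript was listed for 75 members, against 79.3% of the eligible genes, and 25 members had several.

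The shares of a gene's transcripts were not used by the rule, which used the sum of their counts. They come from the same counts and libraries, so they are another measure and not independent data. They were tested with edgeR's quasi-likelihood F-test on the estimated counts per transcript, over the 4279 genes with at least 2 transcripts past the filter, in 3 comparisons. The filter kept 24 members with several transcripts. From R7 to R8, averaged over the 4 accessions, 29.3% of all these genes changed their shares, as did 40.6% of the eligible ones and 9 of the 24 members. From R8 to R9 the background was 4.86% of all and 5.03% of the eligible genes, and 1 of 24 members was called. Between MIDAS and G12873, averaged over stages, it was 12.2% and 16.6%, and 3 of 24 members were called. The members' counts were near the background in each comparison and say nothing particular to the members.

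Phvul.006G220700 showed the largest change in share. It has 2 transcripts of nearly equal length, 2603 and 2595 bases. At R7 its transcript 1 made up 0.00165%, 5.13% and 2.89% of the gene's TPM in G12873, 31.6%, 2.997% and 5.61% in ICA Bunsi, and 4.02%, 3.14% and 3.22% in MIDAS. At R8 it made up 75.8%, 40.1% and 66.6% in G12873, 74.2%, 58.5% and 59.5% in ICA Bunsi, and 73.6%, 44.1% and 73.9% in MIDAS. In these 3 accessions every R8 library lay above every R7 library. In SXB 405 the libraries stood at 74.5%, 64.8% and 2.02% at R7 and at 74.5%, 40.7% and 2.85% at R8, so the replicates of 1 group lay at both ends of the range. Whether the accessions differ in this change was not tested.

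Over all accessions transcript 1 of Phvul.006G220700 made up 57.0% (SD 21.9, n = 12) at R8 and 16.7% (SD 26.2, n = 12) at R7, with an adjusted p of 4.554e-05 by edgeR's quasi-likelihood F-test. The call held in 41 of 42 alternatives, with adjusted p-values between 1.2e-05 and 0.8927, the last of these with the covariate described below for effective lengths. At R9 it was 23.4% (SD 19.2, n = 12), with an adjusted p of 0.04296 for the step from R8 by the same test. That second call was lost in 26 of 42 alternatives, with adjusted p-values between 0.01598 and 0.3299. The gene's total meanwhile lay between 40.1 and 79.7 CPM in all 36 libraries. The highest total, 79.7 CPM in G12873 R7 replicate 1, came with the lowest share of transcript 1 but 24 counts in all.

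**Figure D5:**
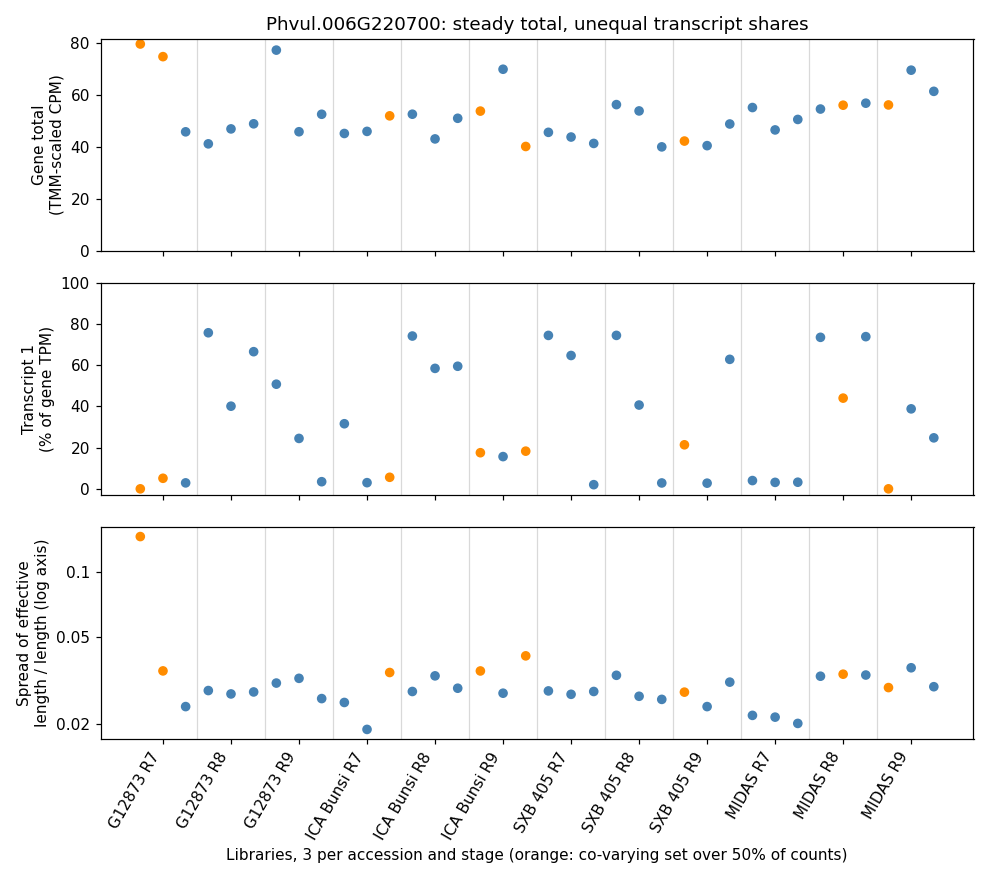
Phvul.006G220700 in each of the 36 libraries: total level (upper panel, TMM-scaled CPM), share of its transcript 1 in the gene's TPM (middle panel, percent) and the library's spread of effective length over length (lower panel, log axis). The total lies between 40.1 and 79.7 CPM, while the share runs from near 0 to 75.8% and is above 40% in every R8 library but SXB 405 replicate 3. Orange points are the 8 libraries where the 10 abundant genes exceeded 50% (named co-varying set on the axis).

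Among the other members called from R7 to R8 by the same edgeR test, 3 with the largest changes in share are described, and their calls too were lost with that covariate. Mean shares also moved as far in 2 members that were not called, named after their values were seen. Transcript 2 of Phvul.006G056800 made up 27.1% at R8 and 49.6% at R7, with an adjusted p of 0.3028 in edgeR's test. Transcript 1 of Phvul.003G090700 made up 85.9% and 62.3%, with an adjusted p of 0.05576 in that test. Its medians were closer, 85.7% and 79.2%. The R7 mean was lowered by libraries among the 8: G12873 R7 replicates 1 and 2 (0.000239% and 0%, from 13 and 28 counts) and ICA Bunsi R7 replicate 3 (27.7%, from 121 counts). Transcript 3 of Phvul.001G200700 made up 47.8% of the gene (SD 10.1, n = 12) at R8 and 25.2% (SD 16.1, n = 12) at R7, with an adjusted p of 0.0005877 by that edgeR test. Its medians were 44.8% and 29.4%, and G12873 R7 replicates 1 and 2, both among the 8, stood at 0.000436% and 0% from 18 and 69 counts. Transcripts 1 and 3 of this gene are nearly equal in length, 2590 and 2585 bases. In MIDAS the share of transcript 3 stood at 23.7%, 11.5% and 11.2% at R7 and at 43.2%, 58.5% and 47.8% at R8, with no overlap. In SXB 405 the same share was 40.5% (SD 7.83, n = 3) at R7 and 43.0% (SD 11.005, n = 3) at R8, a difference within the spread.

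Transcript 5 of Phvul.007G262200 made up 45.0% (SD 23.8, n = 12) at R8 and 73.97% (SD 25.1, n = 12) at R7, with an adjusted p of 0.0007078 in edgeR's test. In ICA Bunsi it stood at 90.9%, 85.2% and 72.6% at R7 and at 26.6%, 21.1% and 18.016% at R8. In MIDAS it went from 91.5%, 96.1% and 94.1% to 39.7%, 37.4% and 46.3%. In both accessions these stages did not overlap, whereas in G12873 the R7 libraries alone spanned 4.01% to 85.7%. The 4.01% came from replicate 1, among the 8, on 20 counts. In SXB 405 the stages overlapped, with 63.6%, 62.5% and 71.7% at R7 and 7.3%, 71.7% and 75.1% at R8. Transcript 3 of Phvul.004G168800 made up 36.7% (SD 11.8, n = 12) at R8 and 55.3% (SD 21.4, n = 12) at R7. Its adjusted p of 0.04903 in edgeR's test passed in 11 of 42 alternatives (0.0002462 to 0.795). The medians were closer, 38.4% and 49.6%. G12873 R7 replicates 1 and 2, both among the 8, stood at 100% and 72.3% from 12 and 48 counts. The remaining 5 of the 9 members, Phvul.009G041100 among them, had adjusted p-values between 0.002545 and 0.0417.

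Between MIDAS and G12873 the called differences were smaller. Transcript 1 of Phvul.003G074600 made up 94.3% (SD 3.51, n = 9) in MIDAS and 85.8% (SD 7.19, n = 9) in G12873, with an adjusted p of 0.02638 by edgeR's F-test, and the ranges of 88.1% to 98.4% and 77.6% to 100% overlapped. At R7 the share was 98.4%, 93.9% and 98.2% in MIDAS and 100%, 80.4% and 87.7% in G12873, and at R8 it was 89.5%, 95.4% and 94.5% against 92.4%, 82.2% and 89.5%. The groups overlapped at both of these stages, at R7 only through the 100%. That value and the 80.4% came from libraries among the 8, on 8 and 39 counts. At R9 they did not, with 96.2%, 94.0% and 88.1% in MIDAS and 80.7%, 81.9% and 77.6% in G12873. Transcript 2 of Phvul.009G083600 was minor in both, at 1.58% (SD 0.705, n = 9) and 0.248% (SD 0.322, n = 9), with an adjusted p of 0.03178. Transcript 2 of Phvul.009G257300 was at 0.243% (SD 0.506, n = 9) in MIDAS and 1.68% (SD 2.28, n = 9) in G12873, with an adjusted p of 0.04153. These 3 calls were lost in 6 of 42, 12 of 41 and 15 of 41 alternatives, with adjusted p-values from 0.003312 to 0.5349, from 0.003984 to 0.6133 and from 0.01455 to 1.

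A technical quantity differed between stages in part of these libraries. For each transcript and library the tables give an effective length, the length over which reads could start as the quantification took it. The SD of effective length over length, across transcripts longer than 2000 bases, lay between 0.0201 and 0.0219 in MIDAS R7 and between 0.0331 and 0.0339 in MIDAS R8. In ICA Bunsi it lay between 0.0189 and 0.0345 at R7 and between 0.0282 and 0.0333 at R8. In G12873 it was 0.146, 0.0351 and 0.0240 at R7 and lay between 0.0275 and 0.0285 at R8, and in SXB 405 it lay between 0.0274 and 0.0284 at R7 and between 0.0259 and 0.0335 at R8. Over all libraries the stages thus separated in MIDAS and overlapped in the other 3 accessions. Without the 8 libraries they also separated in G12873, at 0.0240 in the 1 R7 library left against 0.0275 to 0.0285 at R8. In ICA Bunsi they then separated too, at 0.0189 to 0.0251 against 0.0282 to 0.0333, and in SXB 405 they still overlapped. G12873, ICA Bunsi and MIDAS are also the accessions in which the share of Phvul.006G220700 separated R7 from R8. In SXB 405 R7, replicates 1 and 3 were nearly equal in this quantity, at 0.0284 and 0.0282, and had 74.5% and 2.02% of transcript 1. Without the 8 libraries 12 of 25 members were called from R7 to R8, and 1229 of 4630 genes. With this quantity added to that fit as a covariate, 0 of 25 members and 71 of 4630 genes were called by edgeR, with 3 members at an unadjusted p under 0.05. Stage and this quantity cannot be told apart where they moved together, as in MIDAS and, without the 8 libraries, in G12873 and ICA Bunsi. What set the shares was not tested.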

How the data were processed

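Per the labels' protocols, total RNA of pods was made into TruSeq libraries and read from 1 end over 75 bases. For each library the authors deposited a table of transcripts with their estimated count, TPM, length and effective length. The submitters' processing notes name kallisto, limma and edgeR and give no version. The deposited estimated counts are not normalized, and the deposited TPM values are scaled by the authors for length and to a fixed total. Genome build, annotation and use of strand were not given in the sources used here, so reads of overlapping, antisense and near-identical genes may be shared.

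Estimated counts of 36995 transcripts were summed to 27433 genes by identifier and rounded. The tests used edgeR 4.0.16 in R 4.3.3, with filterByExpr (minimum count 10, minimum total count 15; 6467 genes removed), TMM and a quasi-likelihood fit over 12 groups of 3. Transcript shares were tested with edgeR's diffSpliceDGE, with the same adjustment over all genes tested. TPM entered no test. Alternatives used DESeq2 1.42.0, limma 3.58.1, other filters, scalings and libraries, and a replicate block. Leaving out the 8 libraries came from an earlier analysis of these data, and the effective-length covariate was chosen after seeing them. Python 3.11.15, pandas 2.3.3 and matplotlib 3.10.9 read tables and drew plots. The scripts were tested on simulated data.

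The members and all lists were chosen with earlier results of these data known. Named genes are the 10 lowest SDs, 3 on each side of the edge of the set, and extremes of TPM, span of group means, single-library deviation, ratio, share of variance and transcript share. No 2 replicates agreed within sampling noise. Same-numbered samples were checked for pairing: their correlations ran from -0.32 to 0.37, and 29 of 198 were over 0.1, so the numbers were not taken to pair samples. Precision follows the counts per library, from 2032504 to 15202548.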

Additional observations from a re-analysis of the deposited data

How the results depend on the processing

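Of the 100 members, 76 were chosen again with RLE size factors, 90 without the low-count filter, 98 with a prior count of 0.5, 68 with a minimum mean of 4 and 68 without the 50 most abundant genes. The list changed more with log2(TPM + 1) (8 shared), a minimum mean of 6 (35), the median absolute deviation (37) and without the 8 libraries (31). It shared 43, 66, 71 and 54 genes without G12873, ICA Bunsi, SXB 405 and MIDAS, and 31, 66 and 49 without R7, R8 and R9. Single libraries left out gave 66 to 96 shared genes, with 66 without G12873 R7 replicate 1.

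Members that differed among groups numbered 45, with 38 to 62 when 1 library was left out, 78 by DESeq2, 57 with RLE size factors, 39 by limma-voom, 40 without the filter and 69 without the 8 libraries. Calls in the stage steps stayed at 0, also with each library left out, except with no minimum fold change, which gave 45 calls.

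Members with changed transcript shares from R7 to R8 numbered 9 of 24 (1253 of all 4279 genes), with 6 by Simes p (724 of all genes), 14 by limma-voom (1511 of all genes), 4 of 14 members tested with transcripts of at least 1 CPM in every group (187 of 818 genes), 12 of 25 without the 8 libraries (1229 of 4630) and 0 of 25 with the covariate added (71 of 4630). Single libraries left out gave 4 to 11, with 4 without SXB 405 R8 replicate 1 (826 of 4433 genes). The 1 call from R8 to R9 (208 of all 4279 genes) became 0 with Simes p (46 of all genes). It also became 0 with the stricter transcript filter (14 members tested, 0 of 818 genes). In these fits 2 and 4 members had an unadjusted p under 0.05. By limma-voom there were 3 (250 of all genes). The call was also lost without the 8 libraries, with and without the covariate, where G12873 R7 and ICA Bunsi R9 hold 1 library each. Single libraries left out gave 0 to 7: the call was lost without G12873 R8 replicates 1 and 3, ICA Bunsi R8 replicates 1 and 2 and R9 replicate 1, SXB 405 R7 replicate 2, R8 replicates 1 and 2 and R9 replicate 2, any library of MIDAS R7, MIDAS R8 replicates 1 and 3 or MIDAS R9 replicate 1, and there were 2 calls without G12873 R7 replicate 2 or R9 replicate 1, 4 without SXB 405 R9 replicate 3 and 7 without ICA Bunsi R9 replicate 2. Where that call was lost, 106 to 187 of all genes were called. With 4 members it was 232 of 4445 genes, and with 7 members 400 of 4443. The 3 differences between MIDAS and G12873 (520 of all 4279 genes) became 0 by Simes p (140 of all genes, 4 members at an unadjusted p under 0.05). They became 1 of 14 with the stricter filter (42 of 818 genes) and 4 by limma-voom (492 of all genes). Fits without the 8 libraries leave 1 library in G12873 R7 and are not counted here. Single libraries left out gave 0 to 8, with 0 without G12873 R8 replicate 2 (6 at an unadjusted p under 0.05), 1 without G12873 R7 replicate 2, G12873 R9 replicates 1 and 2, MIDAS R7 replicate 1 or MIDAS R8 replicates 1 and 2, 5 without ICA Bunsi R9 replicate 2 and 8 without G12873 R7 replicate 3. Of all genes, 454 of 4447 were called in the fit with 0 members and 612 of 4442 in the fit with 8. It was 545 of 4443 in the fit with 5 members, and 412 to 482 genes in the fits with 1. The causes were not tested.

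A fit with the replicate number as a block gave 43 members that differed among groups (18551 of all 20966 genes) and 0 calls in the stage steps. It gave 8, 0 and 3 members with changed transcript shares in the order above, and 1201, 154 and 384 of all 4279 genes. With the block, 6 members had an unadjusted p under 0.05 from R8 to R9. Depth limits the members most in G12873 R7 replicate 1, where the lowest member had 5 counts and the median member 16.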
